A study of Mus musculus with 12 samples.

Results

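Transcription factors that direct the formation and function of blood cells were examined in abdominal aorta of mice lacking CCN2 in smooth muscle. The set held 9 genes, Spi1, Irf5, Irf8, Cebpb, Batf, Runx1, Runx3, Ikzf1 and Maf, found by symbol among the 55092 features of the FPKM table. The set and the gene lists used below were chosen with earlier results of these data known. Their counts beside all tested genes are therefore a description. All 12 mice were male and CCN2-floxed, and all received 5 doses of tamoxifen at 8 weeks of age followed by a washout of 2 weeks. CCN2SMC∆ mice carried in addition a tamoxifen-inducible Cre (Cre-ERT2) driven by the Myh11 promoter, which limits the deletion to Myh11-expressing smooth muscle cells (SMC), whereas CCN2fl/fl controls carried no Cre. Mini-osmotic pumps then delivered saline or angiotensin II (Ang II, 500 ng/kg/min) for 7 days, without the hypercholesterolemia used elsewhere in the study. The 4 groups of 3 mice were CCN2fl/fl with saline (CFS, mice 68, 69 and 70), CCN2SMC∆ with saline (CSS, mice 54, 55 and 56), CCN2fl/fl with Ang II (CFA, mice 71, 72 and 74) and CCN2SMC∆ with Ang II (CSA, mice 01, 02 and 03). Poly(A) RNA of each aorta gave 1 library. Values are FPKM, fragments per kilobase of exon, here already on a median-of-ratios scale between libraries. They allow levels to be set side by side between genes.

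Spi1 encodes PU.1, the ETS family factor that opens myeloid and B cell enhancers, often together with the interferon regulatory factors IRF8 and IRF4. C/EBPβ acts beside PU.1 in macrophage inflammatory genes, BATF pairs with JUN proteins and with IRFs in lymphocytes and dendritic cells, and c-Maf, encoded by Maf, is a factor of resident macrophages and T cells that is also present in other tissues. RUNX1 and RUNX3 bind DNA with CBFβ and serve hematopoietic stem cell emergence and the CD8 T cell and NK cell lineages, and Ikaros, encoded by Ikzf1, is a zinc finger factor of nearly all lymphoid and many myeloid cells. The set is known chiefly from blood and immune cells, and C/EBPβ also acts in liver and fat. In whole aorta, more cells of a type and more RNA per cell cannot be told apart.

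RefSeq promoters (GRCm38.p6) matched 7 of the 9 members, and the table used held no entry for Spi1 and Maf. The 11 annotated starts of these 7 genes were searched over the 250 bases upstream, on both strands, for the letters bound by the families themselves. The promoters below are those that held at least 1 searched word, shown because they carry motif letters of the same factor families whose transcripts are described here, and capitals mark the match as read on the printed strand.

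Batf, chr12:85686470-85686719, plus strand: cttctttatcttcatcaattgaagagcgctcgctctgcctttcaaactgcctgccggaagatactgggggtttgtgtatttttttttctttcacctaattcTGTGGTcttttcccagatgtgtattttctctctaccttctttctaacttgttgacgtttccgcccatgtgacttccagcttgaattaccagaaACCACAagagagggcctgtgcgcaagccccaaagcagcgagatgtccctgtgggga

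Runx3, first start, chr4:135120395-135120644, plus strand: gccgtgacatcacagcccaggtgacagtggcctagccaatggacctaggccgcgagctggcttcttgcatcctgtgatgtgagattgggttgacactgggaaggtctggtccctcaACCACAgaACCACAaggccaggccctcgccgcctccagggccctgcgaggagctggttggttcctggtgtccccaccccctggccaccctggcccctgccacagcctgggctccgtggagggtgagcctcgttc

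Runx1, second start, chr16:92697330-92697579, minus strand: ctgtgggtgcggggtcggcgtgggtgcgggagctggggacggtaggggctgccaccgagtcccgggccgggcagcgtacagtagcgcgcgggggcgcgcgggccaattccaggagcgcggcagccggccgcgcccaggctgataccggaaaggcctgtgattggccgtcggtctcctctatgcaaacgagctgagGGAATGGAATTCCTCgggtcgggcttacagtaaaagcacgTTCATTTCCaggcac

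Irf8, second start, chr8:120738389-120738638, plus strand: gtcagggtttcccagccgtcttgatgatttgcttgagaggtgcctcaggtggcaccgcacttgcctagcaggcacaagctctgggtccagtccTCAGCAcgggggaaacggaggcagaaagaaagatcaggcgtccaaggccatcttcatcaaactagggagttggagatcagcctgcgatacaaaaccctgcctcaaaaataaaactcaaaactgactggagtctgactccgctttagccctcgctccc

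The RUNX core TGTGGT, or its complement ACCACA, occurred 2 times in the Batf promoter and 2 times upstream of the first Runx3 start, and 14.0% of all 32851 RefSeq mouse promoters of this length held it. GAGGAA, the word used for ETS factors and PU.1, was present once, as TTCCTC, upstream of the second Runx1 start and in 23.3% of all promoters. GGAANNGAA, a shortened ETS-IRF composite word, occurred 2 times in the same Runx1 window and in 6.99% of all promoters, and 1 of its matches abuts TTCCTC, so that both form a single run of capitals. Extended by an A, the form in which this word is usually given, it was in 2.30% of all promoters and in 0 of the 11 member promoters. The MAF word TGCTGA was present once, as TCAGCA, upstream of the second Irf8 start and in 16.1% of all promoters. No member promoter held the IRF word GAAANNGAA (7.13% of all promoters), the C/EBP word TTGCNNAA (9.56%) or the AP-1 word TGANTCA (6.75%), which says only that these letters are not in these windows. The words GAGGAA, GGAANNGAA and GAAANNGAA can overlap one another by their letters, and no printed match overlaps another.

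Depth was 14558549 to 23107760 recovered fragments per library, lowest in CSA mouse 03. That library stood apart from its group: it lay 1.21 and 1.20 (root mean square log2 difference over tested genes) from CSA mice 01 and 02, which were 0.505 apart, whereas replicates of the other groups were 0.586 to 0.743 apart. Its difference from the other CSA mice followed the GC content of the transcript, with a median log2 difference of 0.59 in the quintile of genes with the lowest GC content and -1.04 in the highest quintile. The difference between those quintiles was -1.63 in this library and -0.17 to 0.13 in the 9 libraries of the other groups. Markers moved with the group as well. Pan-leukocyte markers (Ptprc, Cd53, Laptm5, Coro1a and Lcp1) summed to 26.2 to 74.4 FPKM in CFA and 427 to 483 in CSA, and 5 of 5 rose. The summed smooth muscle markers (Myh11, Acta2, Tagln, Cnn1, Lmod1 and Smtn) were 5377 to 8214 in CFA and 785 to 931 in CSA, and 6 of 6 fell. These SMC markers were detected in every library, and the part of either cell type in the results below was not tested.

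The comparison of CSA with CFA asks how the transcripts of these factors differ with loss of SMC CCN2 during Ang II infusion. The paper reports infrarenal aneurysms in nearly all mice treated as in CSA. In controls treated as in CFA it reports only a few mild ones, in other parts of the aorta. The RNA came from the infrarenal segment, and whether each sequenced aorta held an aneurysm is not stated. Genotype and aneurysm cannot be separated in this comparison, and the part of aneurysm in the differences was not tested. Under Ang II, 7 of the 9 factors rose in CSA aorta, between 6.98-fold for Irf5 and 14.0-fold for Runx3, and 0 fell. Cebpb and Maf were the exceptions, higher by 2.39-fold and 2.0-fold and short of the fold limit. A gene was called upregulated at an adjusted p under 0.05 (limma on log2(FPKM + 0.1), Benjamini-Hochberg over all 14676 tested genes) and a log2 fold change over 1.5, and 8.95% of tested genes met this in CSA against CFA, with 8.27% downregulated. The size and order of these changes depend on the pseudocount: with 1 in place of 0.1 the same 7 were called, with log2 fold changes of 3.09 for Spi1, 2.66 for Ikzf1, 2.56 for both Irf5 and Runx1, 2.47 for Irf8, 2.36 for Batf and 2.27 for Runx3, now the lowest of the 7. Adjusted p alone was under 0.05 and the level higher for 9 of 9 members and for 19.5% of tested genes. The median log2 fold change was 3.27 over the members and -0.04 over all tested genes. In 8 of the 9, every CSA mouse exceeded every CFA mouse, as in 23.4% of tested genes.

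All 9 passed the filter of at least 1 FPKM in at least 3 libraries, but Batf, Runx1 and Runx3 did so only through the CSA libraries. For these 3 genes, being tested at all rested on the group in which they were high. The 12 mice were separate animals, so p-values set each difference against the spread between mice within groups. That spread was pooled over all groups and moderated towards genes of similar level. Replicates lay up to 1.21 apart (root mean square log2 difference) in CSA, through mouse 03, and up to 0.743 in the other groups.

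**Figure D1:**
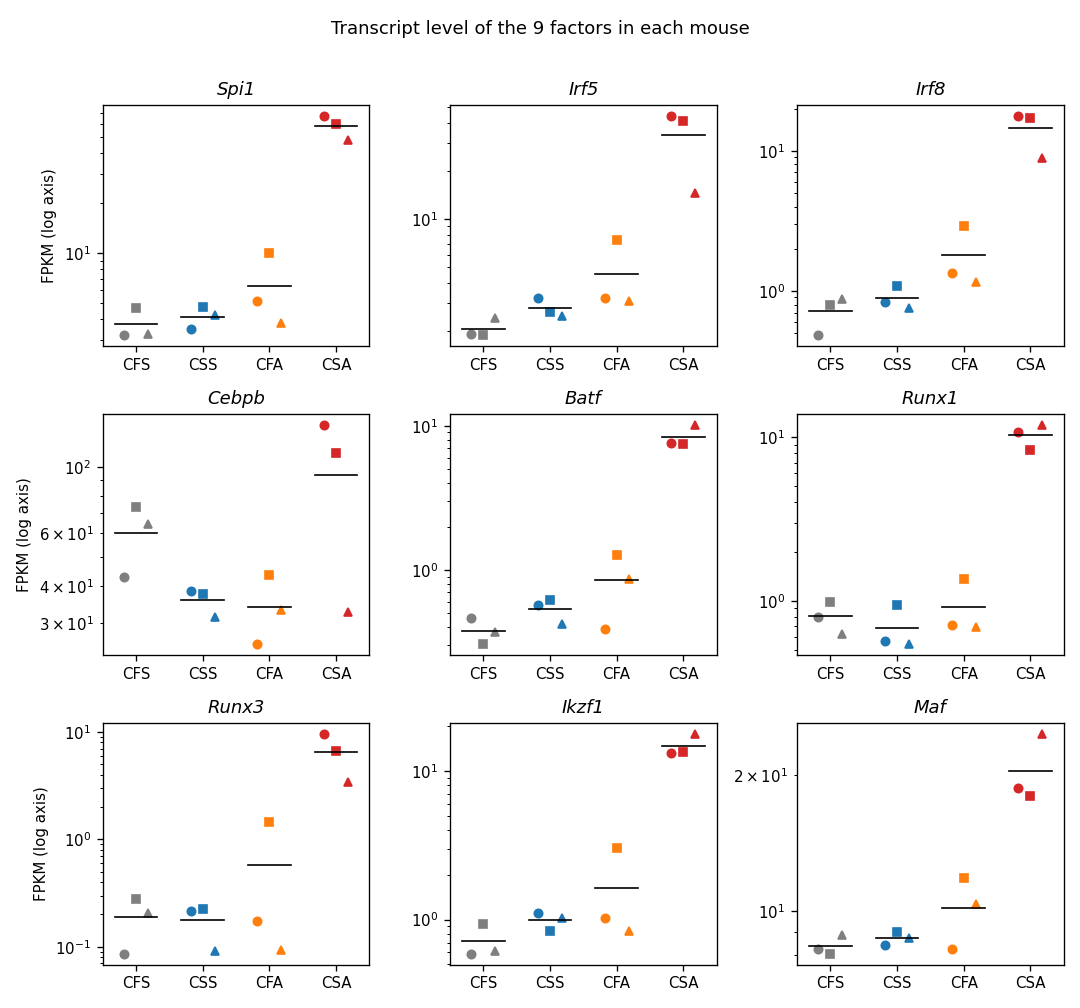
FPKM of each factor in each mouse on a log axis, grouped as CFS, CSS, CFA and CSA, with circles, squares and triangles for the mice of a group in number order and a line at the group mean. The CSA mice sit above every other mouse for all factors but Cebpb, for which CSA mouse 03 (triangle) lies at 32.7 among the CFA mice.

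Spi1 (ENSMUSG00000002111, chr2:91082390-91115756, plus strand) was detected in every aorta. Its FPKM was 3.21, 4.70 and 3.29 in CFS, 3.49, 4.73 and 4.23 in CSS, 5.18, 10.1 and 3.83 in CFA, and 67.2, 59.8 and 48.0 in CSA, with mice in the order given above. The lowest CSA mouse was far above the highest of the other 9, CFA mouse 72. The rise was 9.72-fold on the log2(FPKM + 0.1) scale (95% confidence interval of the log2 fold change 2.61 to 3.95, adjusted p = 1.4e-05, limma). Spi1 shares no exonic base with another annotated gene.

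Irf5 and Irf8 encode interferon regulatory factors, IRF5 acting downstream of Toll-like receptors in macrophages and IRF8 setting monocyte and dendritic cell fate with PU.1. Irf5 (ENSMUSG00000029771, chr6:29526625-29541871, plus strand) had FPKM of 1.92, 1.88 and 2.40 in CFS, 3.20, 2.62 and 2.48 in CSS, 3.21, 7.41 and 3.09 in CFA, and 44.1, 41.2 and 14.6 in CSA. CSA mouse 03 was well below the other CSA mice yet still above every mouse of the other groups. The log2 fold change was 2.80 (SE 0.42, adjusted p = 0.000328, limma) with this mouse and 3.31 without it. Irf5 shares 14.1% of its exonic bases with Tnpo3, so part of its count is uncertain.

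Irf8 (ENSMUSG00000041515, chr8:120736358-120756694, plus strand) was lower than Irf5 throughout. Its FPKM was 0.483, 0.796 and 0.879 in CFS, 0.831, 1.08 and 0.762 in CSS, 1.34, 2.93 and 1.16 in CFA, and 17.7, 17.2 and 8.85 in CSA. Again CSA mouse 03 was the lowest of its group and the groups did not overlap. The rise was 2.99 on the log2 scale (SE 0.37, adjusted p = 0.0001, limma) and 3.31 without that mouse.

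Cebpb had the highest mean of the set in all 4 groups, and it was the only one for which CSA and CFA overlapped. The gene (ENSMUSG00000056501, chr2:167688915-167690418, plus strand) had FPKM of 42.7, 73.2 and 64.3 in CFS, 38.3, 37.6 and 31.4 in CSS, 25.5, 43.5 and 33.1 in CFA, and 138, 111 and 32.7 in CSA. Mice 01 and 02 of CSA exceeded every other mouse, whereas CSA mouse 03 lay below the CFA mean of 34.0. The log2 fold change was 1.26 (95% interval 0.26 to 2.26, adjusted p = 0.0463, limma) with all mice, which missed the fold limit. Without CSA mouse 03 it was 1.90 (adjusted p = 0.0002) and Cebpb was called upregulated, and without CSA mouse 01 it was 0.86 (adjusted p = 0.153). Over all settings tried its adjusted p ran from 2.6e-05 to 0.153. Its transcript has the highest GC content of the set (67.2%), and 20.7% of its exonic bases are shared with Tmem189.

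Batf encodes an AP-1 family factor of activated lymphocytes and dendritic cells. At ENSMUSG00000034266 (chr12:85686669-85709087, plus strand) the values were 0.462, 0.304 and 0.371 FPKM in CFS, 0.574, 0.614 and 0.425 in CSS, 0.392, 1.27 and 0.872 in CFA, and 7.57, 7.48 and 10.1 in CSA. The groups were far apart, and here CSA mouse 03 was the highest. The rise was 9.67-fold (95% interval of the log2 fold change 2.50 to 4.05, adjusted p = 3.4e-05, limma). Outside CSA only 8 to 38 fragments stood behind each value, so levels below 1 FPKM carry wide counting error.

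Maf had the smallest fold change of the set. The gene (ENSMUSG00000055435, chr8:115682942-115707794, minus strand) had FPKM of 8.22, 8.05 and 8.84 in CFS, 8.41, 8.97 and 8.73 in CSS, 8.24, 11.8 and 10.4 in CFA, and 18.7, 17.96 and 24.6 in CSA. It was the most even member between saline mice, and the CSA mice were clear of the rest. The difference between CSA and CFA was 2.0-fold (95% interval of the log2 fold change 0.66 to 1.35, adjusted p = 0.000414, limma), below the fold limit, and Maf was past the threshold only without that limit. Of its exonic bases 5.3% are shared with Gm15655.

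Runx1 and Runx3 were both near or below 1 FPKM outside CSA, apart from CFA mouse 72. Runx1 (ENSMUSG00000022952, chr16:92601466-92826149, minus strand) had FPKM of 0.801, 0.987 and 0.627 in CFS, 0.568, 0.951 and 0.543 in CSS, 0.710, 1.36 and 0.694 in CFA, and 10.7, 8.39 and 11.8 in CSA. The CSA mice were tightly grouped and apart from all others. The log2 fold change was 3.40 (SE 0.30, adjusted p = 9.9e-06, limma), the smallest adjusted p of the set.

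Runx3 (ENSMUSG00000070691, chr4:135120652-135177990, plus strand) was the scarcest member in every group by mean. Its FPKM was 0.0865, 0.278 and 0.209 in CFS, 0.215, 0.226 and 0.0919 in CSS, 0.174, 1.46 and 0.0943 in CFA, and 9.54, 6.66 and 3.43 in CSA. CFA mouse 72 was the only mouse outside CSA above 1 FPKM, and CSA mouse 03 was the lowest of its group, with no overlap. The log2 fold change was 3.81, the largest of the 9 at a pseudocount of 0.1 but not at 1 (2.27), with the widest interval (95% interval 2.23 to 5.39, adjusted p = 0.00148, limma). Leaving out single mice gave values from 3.23 (without CFA mouse 74) to 4.73 (without CFA mouse 72), with adjusted p up to 0.0118, and 4.21 without CSA mouse 03, and as few as 8 fragments lay behind the lowest value.

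Ikzf1 (ENSMUSG00000018654, chr11:11685003-11772926, plus strand) had FPKM of 0.590, 0.935 and 0.612 in CFS, 1.10, 0.831 and 1.03 in CSS, 1.02, 3.02 and 0.841 in CFA, and 13.1, 13.4 and 17.7 in CSA. The lowest CSA mouse was above the highest CFA mouse, and CSA mouse 03 was the highest. The rise was 9.89-fold (95% interval of the log2 fold change 2.45 to 4.16, adjusted p = 6.3e-05, limma).

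**Figure D2:**
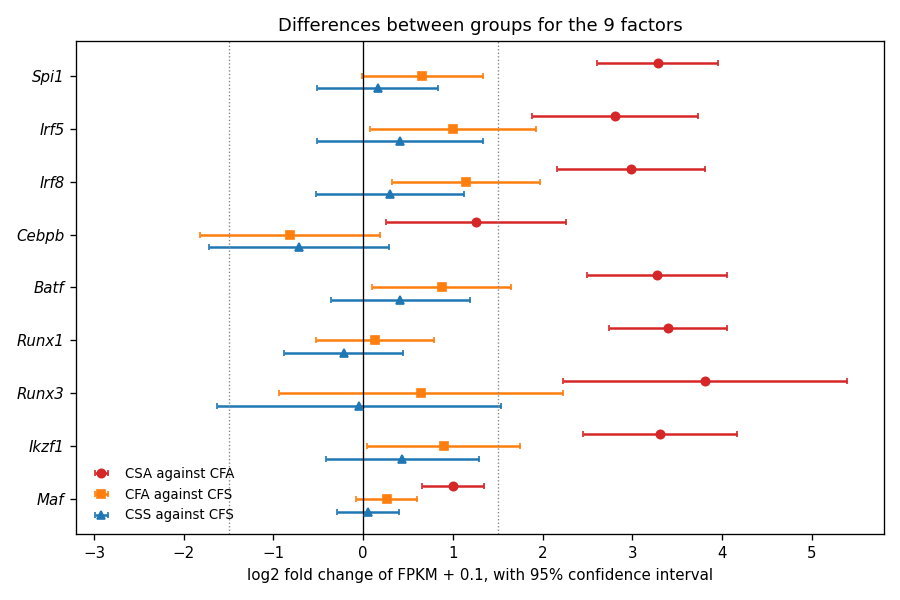
Log2 fold change of FPKM + 0.1 with its 95% confidence interval for each factor in 3 comparisons, with dotted lines at -1.5 and 1.5. The intervals for CSA against CFA lie above 1.5 for Spi1, Irf5, Irf8, Batf, Runx1, Runx3 and Ikzf1, whereas the intervals of the other comparisons reach no further than -1.82 and 2.23 and mostly cover 0.

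The order of the levels changed with the group. In CFS the means ran from Cebpb (60.05 ± 15.7 FPKM, SD, n = 3) through Maf (8.37 ± 0.414), Spi1 (3.73 ± 0.838) and Irf5 (2.06 ± 0.288), which did not overlap one another, to Runx1, Irf8 and Ikzf1 (0.712 to 0.805), whose mice overlapped, and to Batf (0.379 ± 0.0791) and Runx3 (0.191 ± 0.0969). In CSA the order was Cebpb (94.0 ± 54.7), Spi1 (58.3 ± 9.67), Irf5 (33.3 ± 16.2), Maf (20.4 ± 3.64), Ikzf1 (14.7 ± 2.54), Irf8 (14.6 ± 4.96), Runx1 (10.3 ± 1.76), Batf (8.39 ± 1.5) and Runx3 (6.54 ± 3.06). Maf ranked 2 in CFS, CSS and CFA and 4 in CSA. Among neighbours in the CSA order, only Spi1 and Irf5, and Maf and Ikzf1, did not overlap.

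Under saline, the comparison of CSS with CFS asks whether loss of SMC CCN2 alone alters these factors. Of the 9 members 0 were called, against 0.0136% of tested genes called in either direction, and 0 had an unadjusted p under 0.05, against 6.3% of tested genes. Log2 fold changes ran from -0.72 for Cebpb to 0.44 for Ikzf1, and the adjusted p from 0.941 to 1 (limma). For Cebpb every CSS mouse was below every CFS mouse (31.4 to 38.3 against 42.7 to 73.2 FPKM), as for 9.31% of tested genes. For Irf5 every CSS mouse was above (2.48 to 3.20 against 1.88 to 2.40), as for 11.1%, and the groups overlapped for the other 7. The 95% intervals spanned -1.72 to 1.54 over the set, widest for Runx3 (-1.63 to 1.54) and narrowest for Maf (-0.29 to 0.40), so a change of the size of the fold limit in either direction lies within the interval of Runx3.

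Ang II without CCN2 loss, the comparison of CFA with CFS, also gave 0 called members, against 0.0273% of tested genes called in either direction. An unadjusted p under 0.05 was found for 4 members and 9.42% of tested genes. The 4 were Irf5 (log2 fold change 0.997), Irf8 (1.14), Batf (0.87) and Ikzf1 (0.90), and the smallest adjusted p of the set was 0.331 for Irf8 (limma). Every CFA mouse exceeded every CFS mouse for Irf5 and Irf8 only, as for 9.44% of tested genes. CFA mouse 72 was the highest CFA mouse for 9 of 9 members, where 37.1% of tested genes were highest in that mouse. Without it the log2 fold changes were 0.59 for Irf5, 0.75 for Irf8, 0.54 for Batf and 0.36 for Ikzf1, and those of Runx1 and Runx3 turned to -0.15 and -0.27. The summed markers of that mouse were also higher, at 74.4 against 26.2 and 30.6 FPKM for pan-leukocyte genes and 413 against 185 and 208 for macrophage genes, and their part in these differences was not tested. Cebpb had the opposite sign, with a log2 fold change of -0.82 (95% interval -1.82 to 0.18).

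Ang II against saline in mice without SMC CCN2, CSA with CSS, shares the CSA libraries with the first comparison. Here 7 of 9 members were called upregulated, against 10.9% of tested genes, with log2 fold changes of 3.39 for Irf5, 3.73 for Batf, 3.75 for Runx1, 3.77 for Ikzf1, 3.78 for Spi1, 3.84 for Irf8 and 4.50 for Runx3. Of these, Batf, Runx1 and Runx3 were tested only through the CSA libraries, so the count is a description. Maf was higher by 1.21 on the log2 scale (adjusted p = 9.1e-05, limma), below the fold limit. Cebpb differed by 1.16 (adjusted p = 0.0576) with all mice and by 1.80 (adjusted p = 0.00023) without CSA mouse 03.

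The difference between genotypes depended on the treatment for most of the set, and the part of aneurysm in this was not tested. The interaction of genotype and treatment was called upward for 8 of 9 members, against 7.89% of tested genes, from 1.97 for Cebpb to 3.86 for Runx3 on the log2 scale. Batf, Runx1 and Runx3 are among the 8 and were tested only through the CSA libraries, so this count is a description. Maf had an interaction of 0.95 (adjusted p = 0.009, limma), under the fold limit. The interaction of Cebpb (adjusted p = 0.0428) combined a negative genotype difference under saline (-0.72) with a positive one under Ang II (1.26), neither of which was called. It lost its call in 11 of 20 alternatives, with adjusted p up to 0.0999 when single mice were left out. Runx3 lost its interaction call without CSA mouse 01 (adjusted p = 0.0549).

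To set each factor against leukocyte transcripts of the same library, its log2 level was taken minus that of Ptprc, the gene of the pan-leukocyte antigen CD45. Ptprc was 1.301, 2.80 and 0.999 FPKM in CFA and 20.4, 17.3 and 29.5 in CSA. Relative to Ptprc, Maf averaged 2.62 ± 0.608 in CFA and -0.11 ± 0.158 in CSA (SD, n = 3), a difference of -2.73, and Cebpb differed by -2.48. The other 7 factors differed by -0.93 for Irf5 to 0.08 for Runx3. Every CSA mouse was below every CFA mouse in this ratio for Spi1, Irf8, Cebpb, Ikzf1 and Maf, for which the two-sided exact permutation test gave p = 0.1, the smallest that 3 against 3 can give (0.18 after Benjamini-Hochberg adjustment over the 9). Ptprc itself rose, so most genes lay lower on this scale: 94.3% of tested genes had every CSA mouse below every CFA mouse, and their median difference was -3.77 (quartiles -4.34 and -3.26). The differences of all 9 factors were smaller in size than that median. Ptprc has a low GC content (39.4%) and was 0.65 higher on the log2 scale in CSA mouse 03 than in mice 01 and 02. Without that mouse the differences were -2.66 for Maf, -1.62 for Cebpb, 0.69 for Runx3 and -0.39 to -0.10 for the other 6. The sign for Runx3 was not stable, since leaving out single mice moved it between -0.30 and 0.69.

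**Figure D3:**
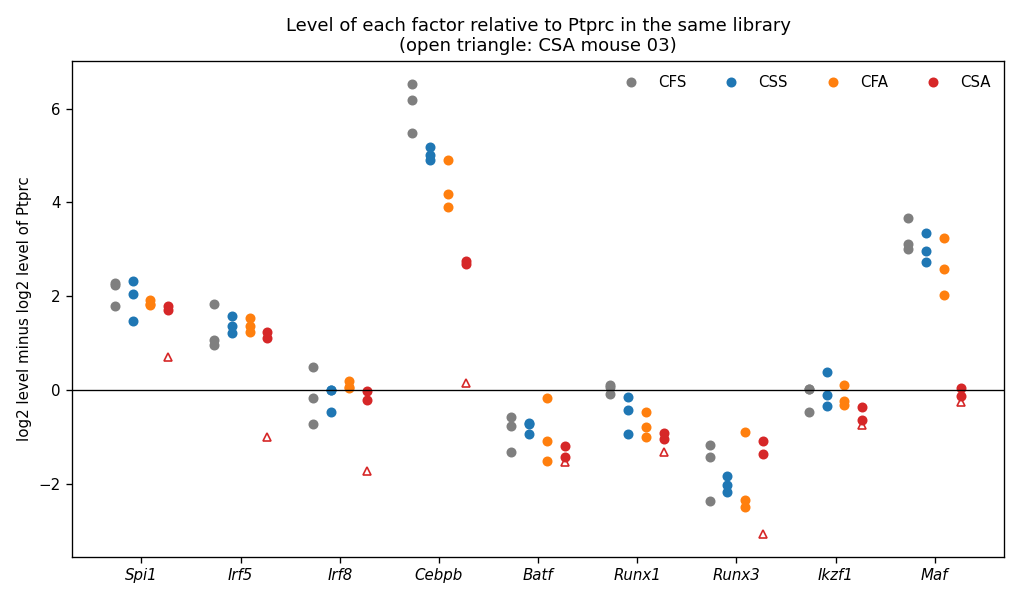
Log2 level of each factor minus the log2 level of Ptprc in the same library, with 1 point per mouse coloured by group and an open triangle for CSA mouse 03. Cebpb and Maf show the widest gaps between CSA (0.15 to 2.75 and -0.26 to 0.05) and CFA (3.91 to 4.92 and 2.04 to 3.25), while the CSA points of Runx1, Batf and Runx3 fall among or near those of CFA.

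Members differed in how CSA mouse 03 departed from its group. Its log2 level minus the mean of CSA mice 01 and 02 was -1.92 for Cebpb, -1.53 for Irf5, -1.19 for Runx3, -0.97 for Irf8 and -0.40 for Spi1, and it was 0.32 for Runx1, 0.41 for Ikzf1 and 0.42 for both Batf and Maf. The 3 members with the lowest GC content, Runx1 (46.4%), Ikzf1 (46.9%) and Maf (47.4%), were all higher in that mouse. Batf (56.6%) was also higher, whereas the median of its GC quintile was -1.04. The part of GC content in the value of a single member was not tested.

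**Figure D4:**
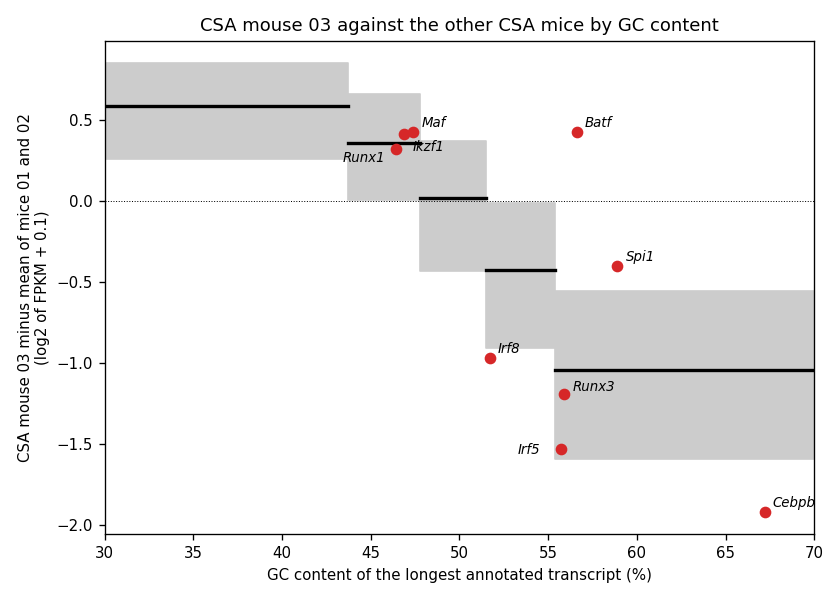
Log2 level in CSA mouse 03 minus the mean of CSA mice 01 and 02 against the GC content of the transcript, with grey boxes from the lower to the upper quartile and a black line at the median of each GC quintile of tested genes, and red points for the members. The medians run from 0.59 to -1.04, and Batf and Spi1 lie above the quartile range of their quintile while Cebpb and Irf8 lie below it, Irf8 (-0.97) only just.

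Relatives and binding partners of the 9 factors showed a mixed pattern. Of 33 such genes 25 were tested, 6 rose and 2 fell between CSA and CFA, where 8.95% and 8.27% of all tested genes did, and their median log2 fold change was 0.81 against -0.04 over all genes. Of the 6 that rose, Runx2, Batf2 and Batf3 reached the filter only through the CSA libraries, where they were high, so these counts are a description. Without CSA mouse 03, 24 were tested, 6 rose and 1 fell. Irf7, the interferon-induced amplifier of type I interferon genes, had FPKM of 1.26, 5.98 and 2.47 in CFA and 138, 121 and 99.9 in CSA, a log2 fold change of 5.42 (SE 0.49) that exceeded all 9 members. Irf9, the DNA-binding subunit of the interferon-stimulated complex ISGF3, rose by 1.99. Irf1 and Irf2 were higher by 1.32 and 1.07 without reaching the fold limit, and Irf3 and Irf4 differed by 0.04 and 0.37. In the ETS family, Fli1 (1.26), Elf4 (1.28), Etv6 (0.90) and Elf1 (0.59) had an adjusted p under 0.05 below the fold limit, and the endothelial factor Erg was at -0.44 (adjusted p = 0.0526). Without CSA mouse 03, Elf1 no longer passed (0.35, adjusted p = 0.0714, limma), whereas Erg (-0.60, adjusted p = 0.00551) and Irf3 (0.39, adjusted p = 0.0184) did.

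Runx2, the osteoblast factor of the RUNX family, rose by 2.53 (SE 0.31) from 0.304 to 0.443 FPKM in CFA to 2.19 to 3.10 in CSA, a level below both Runx1 and Runx3. Their shared partner Cbfb was higher by 1.38, from 9.54, 14.5 and 10.2 FPKM to 25.3, 26.7 and 37.2, below the fold limit. Its log2 fold change was smaller than that of the 3 DNA-binding subunits, a difference that was not tested.

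Among partners of BATF and C/EBPβ, Batf2 (1.73) and Batf3 (1.70) rose, Jund fell (log2 fold change -1.78), and Jun (-0.60) and Junb (0.81) did not pass the test. Both Jund and Junb depended on CSA mouse 03: without it Jund was at -0.91, short of the fold limit, and Junb was called upregulated at 1.89 (adjusted p = 0.000213, limma). Cebpa, Cebpd and Cebpg differed by -0.31, 0.12 and 0.35 and did not pass either. Without CSA mouse 03 Cebpa turned to 0.51 and Cebpd was at 0.68, and neither passed. CSA mouse 03 was the lowest CSA mouse for Cebpa, Cebpd, Junb and Jund, with log2 differences of -3.21 to -1.68 from the mean of mice 01 and 02. Jund was 53.1, 48.9 and 8.41 FPKM in CSA and 92.8 to 98.8 in CFA, so all CSA mice were below.

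**Figure D5:**
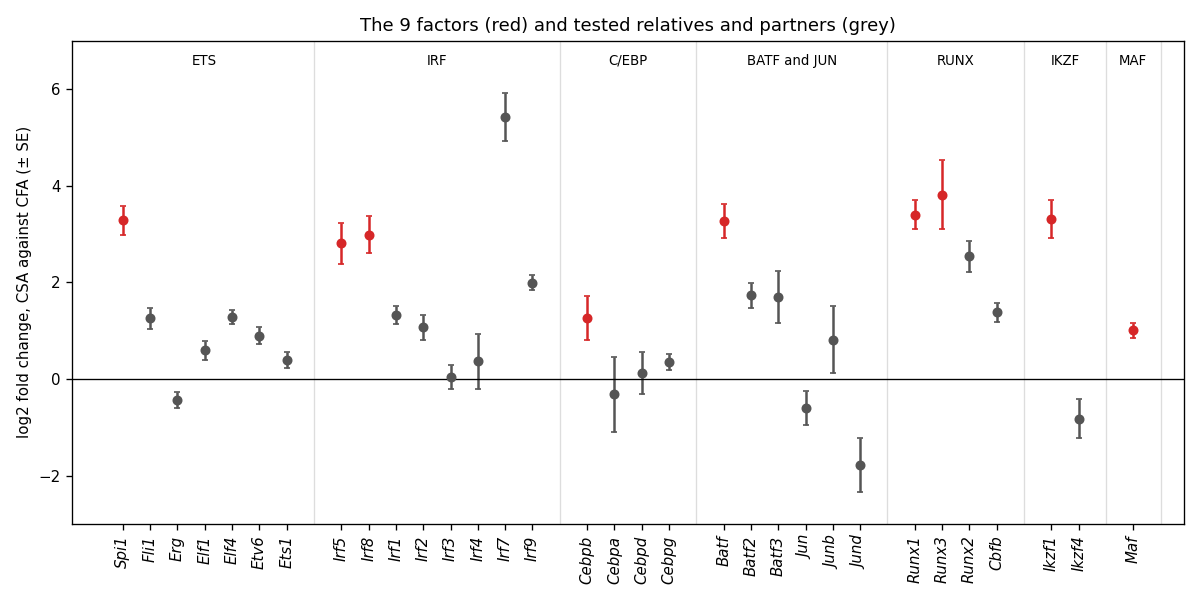
Log2 fold change of CSA against CFA with its standard error for the 9 factors (red) and tested relatives and partners (grey), ordered by family. Irf7 at 5.42 is the highest point, the members other than Cebpb and Maf lie between 2.80 and 3.81, and Jund is the lowest point drawn, at -1.78.

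Other hematopoietic regulators, chosen for erythroid, lymphoid and stem cell roles, were read in the same way. Of 26 genes 16 were tested, 4 rose and 0 fell, where 8.95% and 8.27% of all tested genes did, and their median log2 fold change was 0.04. Foxp3 and Nfe2 were tested only through the CSA libraries, and without CSA mouse 03 neither was tested, Hhex (1.35) was short of the fold limit, and 1 of 14 rose. Foxp3, the regulatory T cell factor, rose by 3.53 from 0.0118 to 0.106 FPKM in CFA to 1.44 to 2.07 in CSA, and Tcf7, a T cell factor, rose by 2.65. Nfe2 (1.81) and Hhex (1.54) also rose. Zbtb16 was at -1.84 (adjusted p = 0.102, limma), with 3.90, 33.1 and 3.82 FPKM in CFA and 1.22, 5.43 and 1.45 in CSA. Runx3, Foxp3 and Tcf7 were each below 1.5 FPKM in every CFA mouse.

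Myeloid genes known as targets of PU.1, the IRFs or C/EBPβ rose with the factors. All 24 were tested, 22 rose and 0 fell, with a median log2 fold change of 2.99, against 8.95% and 8.27% of all tested genes. Itgam, Msr1, Btk and Blnk were tested only through the CSA libraries, and without CSA mouse 03, 21 of 23 rose. The largest were Il1b (5.60), which encodes interleukin-1β, the Fcγ receptor gene Fcgr1 (5.24) and the cathepsin gene Ctss (4.60). The growth factor receptors Csf1r (1.91), Csf2ra (2.18), Csf2rb (2.86) and Csf3r (3.80), the integrin Itgam (3.61) and the oxidase genes Cybb (3.63), Ncf1 (2.94) and Ncf4 (3.72) were among them. Mrc1, the mannose receptor of resident macrophages, was higher by 0.91 (adjusted p = 0.0337, limma; 0.57 and adjusted p = 0.084 without CSA mouse 03) below the fold limit, and Tlr4 differed by 0.27 (adjusted p = 0.294). In CSS against CFS 0 genes of these 3 lists were called.

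Markers of the leukocyte types that use these factors were read as whole lists, to be set against the 8.95% of all tested genes that rose and the 8.27% that fell. Macrophage markers rose for 7 of 8 and summed to 185 to 413 FPKM in CFA and 1121 to 1676 in CSA, with Mertk lower (log2 fold change -0.73). Monocyte markers rose for 4 of 5 (12.7 to 30.6 against 139 to 190 FPKM). Neutrophil markers rose for 8 of 8 tested (11.2 to 28.0 against 525 to 572), with Ly6g at 0 to 0.680 in CSA and not tested. T cell markers summed to 0.811 to 2.61 FPKM in CFA and 22.0 to 30.6 in CSA, and 7 of 7 were called. All 7 were tested only through CSA, as were 3 of the 4 monocyte markers and 5 of the 8 neutrophil markers that rose, so these counts are a description, and without CSA mouse 03 none of the T cell markers was tested. In dendritic cells 3 of 6 tested markers rose, in B cells 2 of 3, all 5 of these tested only through CSA, and in NK cells the 1 tested marker. Mast cell and platelet markers gave 0 called genes, and 3 of 3 tested erythroid markers fell, though 0 did without CSA mouse 03. Of endothelial markers 1 of 6 rose (Emcn, short of the fold limit without CSA mouse 03) and 3 fell, of adipocyte markers 2 of 5 fell, fibroblast markers gave 0 called genes of 5, and the 5 lymph node stroma markers were too low to be tested. The part of these lists in the values of the 9 factors was not tested.

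The genes whose profile across the 12 libraries was nearest to each member were found by the smallest root mean square difference of centred log2 levels among 14406 genes, as a description. Spi1 was nearest to Pld4 (0.169), Fgd3 (0.202) and Cd68 (0.213), and Irf8 to Fgd3 (0.181), Ccdc88b (0.193) and Arhgap9 (0.204). Irf5 was nearest to Arhgap45 (0.194), Runx1 to Fyb (0.232), Ikzf1 to Lcp1 (0.225) and Batf to Pirb (0.276). The 3 nearest genes of Maf were Nfxl1 (0.106), Map4k4 (0.108) and the ribosomal protein gene Rpl11 (0.126), none of them among the 3 nearest of another member. Cebpb and Runx3 had no gene as near, with 0.354 for 1700017B05Rik and 0.385 for Cd52. These points share libraries, depth and the GC pattern of CSA mouse 03.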

How the data were processed

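RNA-Seq of abdominal aorta from 12 mice was analysed from 1 table of FPKM deposited by the authors, 1 value per gene and mouse without pooling, and 0 columns were left unused. The submitters' processing notes name HISAT2 2.0.5, StringTie 1.3.3b, featureCounts 1.5.0-p3 and mm10, and the strand setting is not given in the sources used here. The deposited FPKM already carry median-of-ratios scaling, since these factors were 1 in all 12 libraries. Exon lengths of GENCODE M21 turned 98.1% to 98.5% of values under 100 fragments into whole fragments (tolerance 0.05), whose sums gave depth. A value of 0 allows up to 3 fragments, which covers counting error only.

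The paper's DEG-Seq needs counts, so log2(FPKM + 0.1) was fitted with limma 3.58.1 in R 4.3.3 (4 groups, eBayes with trend and robust settings) over 14676 genes with at least 1 FPKM in at least 3 libraries, with Benjamini-Hochberg adjustment. The pseudocount understates changes of low genes. Calls required adjusted p under 0.05 with a log2 fold change above 1.5 or below -1.5. On simulated data, 174 of 193 tested genes changed 8-fold in CSA were called in CSA against CFA (90.2%). Among 13691 genes tested, 1 unchanged gene was called there, and 0 were called in CSS against CFS, where no gene was changed. The simulated noise was independent between genes, had the same spread in all groups and held no GC pattern like that of CSA mouse 03. These rates therefore cannot be carried over to the real data. Ratios to Ptprc were compared by exact permutation tests (20 splits), with Python 3.11.15, scipy 1.17.1, pandas 2.3.3, numpy 2.4.6 and matplotlib 3.10.9. GC content, from the longest annotated transcript, was available for 98.2% of tested genes.

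The members and lists were chosen with earlier results of these data known. Named genes are the members, the 3 genes of each list with the largest change between CSA and CFA, tested relatives and partners of members, list markers and, for each member, the 3 genes with the nearest profile. The ETS-IRF and IRF words were shortened by 1 base after a search with the longer words had found them in 0 member promoters, so the matches of the shorter ETS-IRF word come from a choice made after that result was seen. Some genes of the lists enter the counts but are not reported here by name. Myeloid targets outside the top 3, Nfe2 and Hhex were named after their values were seen. Alternatives were a pseudocount of 1, no filter, a mean of at least 5 FPKM, median-of-ratios scaling, scaling to equal totals, eBayes without trend and robust settings, array weights, no fold limit, a fit of the 2 groups compared, and leaving out each mouse.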

Additional observations from a re-analysis of the deposited data

Results flagged for a closer look

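The genotype difference under Ang II was larger than that under saline by the interaction test (limma, Benjamini-Hochberg, adjusted p under 0.05, log2 difference above 1.5) for 8 of the 9 factors. The difference of the differences on the log2 scale was 3.12 for Spi1, 2.40 for Irf5, 2.69 for Irf8, 1.97 for Cebpb, 2.86 for Batf, 3.62 for Runx1, 3.86 for Runx3 and 2.87 for Ikzf1. It was positive in all 8, and 7.89% of tested genes had such an upward interaction. Since Batf, Runx1 and Runx3 were tested only through the CSA libraries, where they were high, the count is a description. Adjusted p was 0.0428 for Cebpb, 0.0167 for Runx3 and 0.0124 or lower for the other 6. In 7 of these 8 the 3 CSA mice exceeded the 3 CFA mice, the exception being Cebpb, and 23.4% of tested genes had this order. No outlier test was run on the values of single genes, since groups of 3 mice are too small for it.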

How the results depend on the processing

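Of 1191 recomputed values, 1153 were tallied as kept. For a fold change this meant the same direction and the same side of the threshold. Counts of called members could move somewhat and still be tallied, as from 7 to 9 in CSA against CFA without a fold limit. Ratios to Ptprc were tallied if they kept their sign and moved by less than the SD of the groups. This tally is no measure of stability. Median-of-ratios scaling (factors of 1), the filters, the eBayes settings, the fold limit, the fit of 2 groups and leaving out a mouse of a group not compared cannot move a fold change, and counts of downregulated members were 0. With a mean of at least 5 FPKM only 4 members were tested, and 2 were upregulated in CSA against CFA, 2 in CSA against CSS and 3 in the interaction, where 5.81%, 6.76% and 5.76% of the 7780 genes tested under that filter were. Leaving out single mice moved Runx1 in CFA against CFS over -0.15 to 0.28, reversed without CFS 70 (-0.02) and CFA 72 (-0.15), and moved Runx3 over -0.27 to 1.23, reversed without CFA 72 (-0.27). Runx3 in CSS against CFS ranged from -0.34 to 0.20 in this way, reversed without CFS 69 (0.17), CFS 70 (0.03) and CSS 56 (0.20), and it was 0.00049 with equal totals and 0.023 with array weights. Relative to Ptprc with a pseudocount of 1, Runx1 moved to -0.57, Maf to -2.20 and Runx3 reversed to -0.86. The Runx3 ratio ran from -0.30 to 0.69 over omitted mice, negative when CFA 71 (-0.14), CFA 74 (-0.22), CSA 01 (-0.30) or CSA 02 (-0.16) was omitted. Cebpb was called in CSA against CFA with array weights (2.01), without a fold limit and without CSA mouse 03 (1.90), and Runx3 lost the interaction without CSA mouse 01 (adjusted p = 0.0549, limma). The causes were not tested. All-gene calls in CSA against CFA, 1314 higher and 1214 lower, became 452 and 643 with a mean of at least 5 FPKM and 918 and 683 with a pseudocount of 1. No paired analysis was possible because the groups share no mouse number. Outside CSA, Batf and Runx3 rest on 8 to 38 and on 8 or more fragments a library.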
